A study of Mus musculus with 24 samples.

Results

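The genes described here are 35 genes of glucose breakdown and synthesis: glucose transporters, the enzymes of glycolysis, the enzymes that pass pyruvate to lactate or to the mitochondrion, the pentose phosphate pathway and gluconeogenesis. They were named by symbol from general knowledge of the pathways, with earlier results of these data known. All 35 symbols were found among the 55487 genes of the deposited table, on 36 rows because *Aldoa* is listed under 2 gene identifiers. Of the 35 genes, 34 had at least 1 count and 31 passed the filter of 25 summed counts that the tests require.

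Expression was measured by BRB-seq, in which samples are barcoded early, pooled, and sequenced at the 3′ end of each mRNA, in 24 libraries of AML-12, an immortalized line of mouse hepatocytes (4 libraries in each of 6 groups). The BSA group had the albumin carrier alone. The PAL group had palmitate, the saturated fatty acid used to model steatosis, at 0.25 mM, and neither of these groups was transfected. CON, BMAL1, CHREBP and BOTH cells received the same palmitate and then, for 24 hours, endoribonuclease-prepared small interfering RNA (esiRNA): CON 200 nM against *Egfp*, BMAL1 100 nM against *Bmal1*, CHREBP 100 nM against *Chrebp*, and BOTH 200 nM in total against *Bmal1* and *Chrebp* together. All 6 groups were kept without dexamethasone and in charcoal-treated serum. The cells were a single line, and nothing in the labels says that replicates came from separate cultures, so the p-values measure the spread between these libraries, which may be technical. By the library position in the labels, column 1 held the untransfected groups, column 2 the groups without *Chrebp* esiRNA (CON, BMAL1) and column 3 those with it, while PAL, BMAL1 and BOTH stood in the lower rows of their columns. Column therefore cannot be told apart from transfection in CON against PAL, nor from *Chrebp* esiRNA in CHREBP or BOTH against CON or BMAL1, and row cannot be told apart from palmitate in PAL against BSA, from transfection in CON against PAL, nor from *Bmal1* esiRNA in BMAL1 against CON or BOTH against CHREBP. BOTH and CON differ in row and column alike. The total amount of esiRNA also differed in each comparison of a single-esiRNA group with CON or BOTH, where it cannot be told apart from the gene silenced, and in the interaction it cannot be told apart from the interaction itself.

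Glycolysis splits glucose into pyruvate, and its flow is set mainly at hexokinase, phosphofructokinase and pyruvate kinase. Pyruvate is then reduced to lactate or enters the mitochondrion through pyruvate dehydrogenase, while the pentose phosphate pathway diverts glucose 6-phosphate to make NADPH and ribose. Hepatocytes in the liver also run the path backwards, through pyruvate carboxylase, phosphoenolpyruvate carboxykinase, fructose bisphosphatase and glucose 6-phosphatase, and they typically take up glucose with *Slc2a2* (GLUT2). *Chrebp* encodes a glucose-responsive transcription factor of these and the lipogenic genes, and *Bmal1* encodes a core clock transcription factor that binds E-box sequences such as CACGTG.

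Libraries held 5399700 to 11237474 gene counts, and 3 counts, the least treated as detectable, correspond to 0.267 to 0.556 CPM, the count scaled to library size. Levels below are normalized counts, the deposited counts divided by DESeq2 size factors over all 24 libraries. BOTH replicates 2 and 4 stood apart. Their counts differed from each other more than those of any other pair of libraries within a group, with a chi-square of 23.1 per degree of freedom against at most 7.53 in the other groups, and of the 24 libraries they had the 2 lowest shares of unaligned reads, 24.9% each, and the highest (6.47%) and the lowest (5.11%) share of reads outside annotated genes. The silenced transcripts were at low levels. *Bmal1*, listed as *Arntl*, had 30.1 to 57.5 normalized counts in CON, 22.3 to 32.9 in BMAL1 and 16.6 to 30.9 in BOTH. *Chrebp*, listed as *Mlxipl*, had 42.4 to 80.3 in BSA and 26.8 to 40.2 in PAL, without overlap. It had 29.0 to 44.4 in CON, 22.1 to 32.7 in CHREBP and 11.5 to 21.9 in BOTH. Of the silenced groups only the BOTH libraries lay wholly below CON, and only for *Mlxipl*. Of the 15 hepatocyte markers examined, *Trf*, *Ttr*, *Hnf4a* and *Serpina1a* had at least 746 counts in every library, and *Alb* had 86 to 242. The others were low, with at most 67 counts for *Fgb*, 54 for *Ass1*, 52 for *Apob* and 21 for *Fga*. *Apoa1* and *Apoh* did not exceed 15, *Apoa2* 9, *Apoc3* 8, *Tat* 5 and *Cps1* 4. Of the 6 biliary markers *Krt19*, *Sox9* and *Spp1* had at least 1338, *Krt7* 223 to 634, *Cftr* 9 to 50 and *Epcam* 0 to 2.

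Of the genes of gluconeogenesis, 3 were close to undetected in these cells. *Pck1* (cytosolic phosphoenolpyruvate carboxykinase) had 12 counts in all 24 libraries together, *Fbp1* (fructose bisphosphatase) 15 and *G6pc* (the liver glucose 6-phosphatase) 14. These 3 genes did not reach the filter, and *Ldhb*, the lactate dehydrogenase subunit typical of heart, had 0 counts in every library, which allows up to the floor of 3 counts per library given above. The 2 other genes of this branch passed the filter. *G6pc3*, the broadly expressed glucose 6-phosphatase, had group means between 393 and 420.0, and *Pcx* (pyruvate carboxylase) between 26.9 and 51.9.

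Together the 35 genes took 0.361% to 0.470% of all gene counts in a library. The mean share was 0.412% ± 0.0104 for BSA and 0.432% ± 0.00745 for PAL (SD, n = 4 each). Among the esiRNA groups it was 0.436% ± 0.00708 for CON, 0.419% ± 0.00996 for BMAL1, 0.410% ± 0.0120 for CHREBP and 0.414% ± 0.0453 for BOTH (SD, n = 4 each). The 4 BOTH libraries held both the lowest and the highest share of the 24. The ratio of the highest to the lowest of the 6 group means had a median of 1.34 over the 31 genes. It was under 1.2 for 11 genes, from 1.2 to 1.5 for 12 and at least 1.5 for 8, all 8 of which had mean normalized counts of at most 44.2. The highest group mean was 1.05 times the lowest for *Tkt* (transketolase) and for *Gpi1* (glucose phosphate isomerase), 1.08 times for *Aldoa* (aldolase A) and for *Taldo1* (transaldolase), and the widest ratios, 1.93 for *Pcx* and 1.85 for *Pfkp*, belonged to genes with mean normalized counts of 40.8 and 39.2, where counting error is larger. A stretch within the last 400 bases of *Gpi1* mRNA matches 5 other genes at 95% identity or more, and those held 71.0% of the summed counts, so its reads may be shared.

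Differences were tested with DESeq2 over all genes, and a gene was called at an adjusted p (*Padj*) under 0.1. In at least 1 of the 7 Wald comparisons between 2 groups 8 of the 31 genes were called, against 24.3% of the 13915 genes tested, a share near that of the 8: *Slc2a2*, *Hk1*, *Pfkm*, *Pfkp*, *Gapdh*, *Ldha*, *Pdha1* and *Pgd*. The other 23 were not called in any. PAL against BSA called *Gapdh*, *Ldha* and *Pdha1*, BOTH against CON called *Slc2a2*, *Hk1*, *Pfkm* and *Pfkp*, and CON against PAL called *Pgd*. BOTH against BMAL1 called *Pfkm* and *Pfkp* as well.

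**Figure D1:**
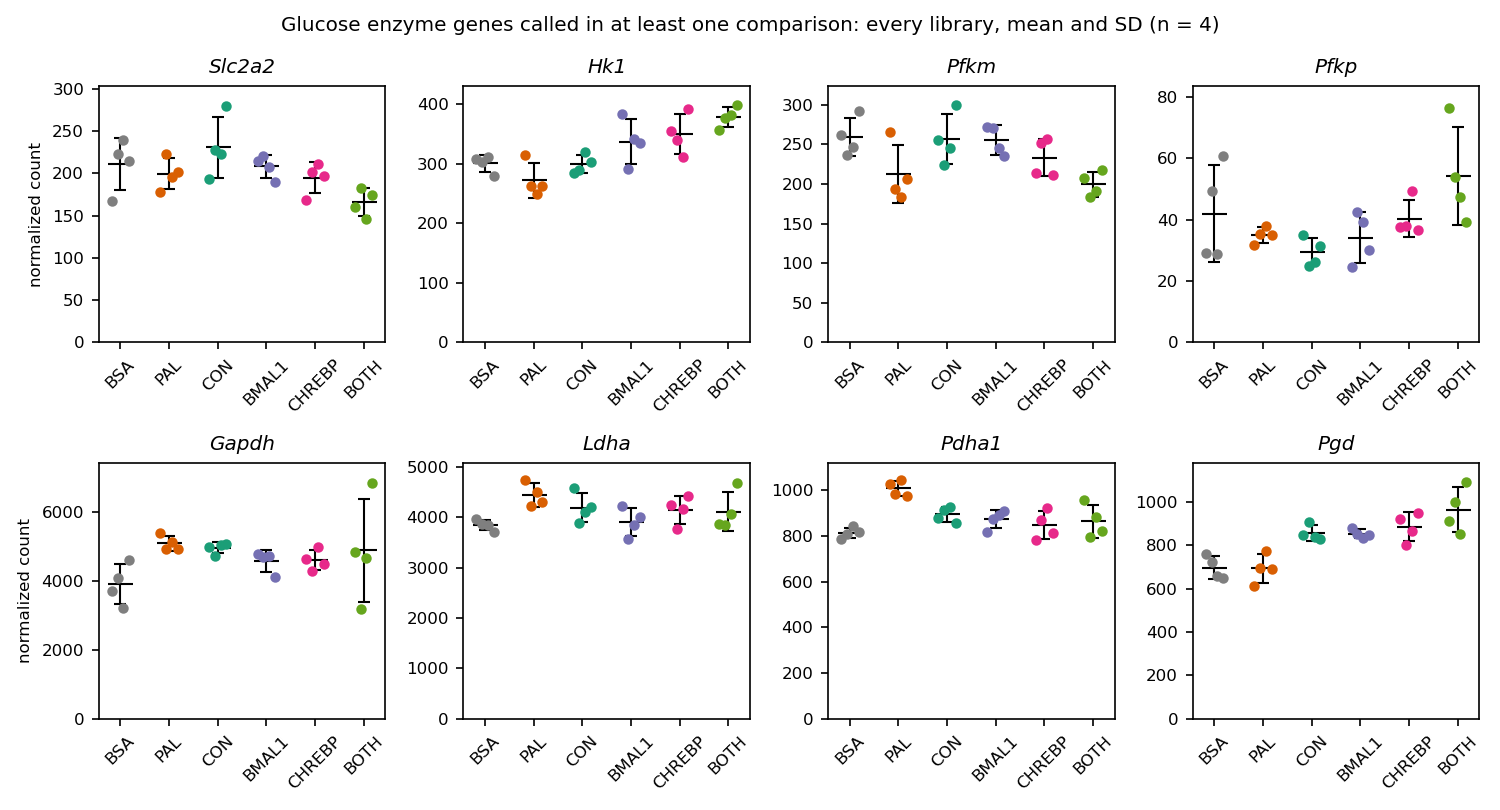
Normalized counts (vertical axes, linear from 0) of the 8 glucose enzyme genes called in at least 1 comparison, by group (horizontal axes), with a point for each of 4 libraries and bars for the mean and SD (n = 4). *Gapdh*, *Ldha* and *Pdha1* lie higher in PAL than in BSA with no overlap, and *Slc2a2* and *Pfkm* lie lowest in BOTH.

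Of the called genes, *Pfkm* and *Ldha* hold the letters CACGTG in the 250 bases before an annotated start in the RefSeq promoter table (GRCm38.p6). Not every annotated start of either gene has them. The windows are shown because this is the E-box form that *Bmal1* is known to bind. Both strands were searched for CACGTG, which reads the same on either, and for the shorter ACGTG that lies within it. The windows of 60 bases are printed 5′ to 3′ on the strand of the gene, with the motif in capitals.
Pfkm, chr15:98092426-98092485 (+ strand), 136 bases before the start: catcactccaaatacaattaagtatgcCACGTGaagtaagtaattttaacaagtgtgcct
Ldha, chr7:46845632-46845691 (+ strand), 145 bases before the start: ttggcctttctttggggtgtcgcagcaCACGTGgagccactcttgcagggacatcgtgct
Ldha, chr7:46845729-46845788 (+ strand), 48 bases before the start: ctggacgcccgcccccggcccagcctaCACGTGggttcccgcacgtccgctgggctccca

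The letters CACGTG stood before at least 1 start of 7 of the 35 genes (20%), against 6.86% of the 27025 genes in the table. The 35 genes have more annotated starts each, and counted by promoter the share was 12.5% of their 56 promoters against 6.02% of all 32851. The 7 genes were *Pfkm*, *Pfkfb2*, *Pfkfb3*, *Ldha*, *Pdk2*, *G6pc3* and *Pcx*. The shorter ACGTG stood before 13 of the 35 (37.1%), against 18.5% of all genes. A match describes these letters only. Of the 7 genes, *Ldha* was called in PAL against BSA, *Pfkm* in BOTH against CON and in BOTH against BMAL1, and the remaining 5 in no comparison. None of the 7 was called in BMAL1 against CON, where the mean level differed by -0.229% for *Pfkm* and -6.71% for *Ldha*.

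Palmitate went with higher levels of *Gapdh*, a gene of lower glycolysis, and of *Ldha* and *Pdha1*, whose products act on pyruvate, and with no called decrease. These were 3 of 31 genes called, all higher, against 14.3% of all genes tested called in either direction, 6.65% higher and 7.6% lower. The comparison of PAL with BSA addressed the effect of the fatty acid load itself. The median log2 fold change over the 31 genes was -0.03, against 0.00 over all 12827 genes tested, with 12 of the 31 positive and 19 negative.

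*Gapdh*, at chr6:125161715-125166467 on the minus strand, encodes glyceraldehyde 3-phosphate dehydrogenase, the oxidizing step of glycolysis. Its normalized counts were 3726, 4089, 3219 and 4627 in BSA and 5385, 4942, 5139 and 4923 in PAL. Every PAL library lay above every BSA library, and the BSA libraries spread more widely. The log2 fold change was 0.39 (SE 0.08, *Padj* = 6.81e-05). Within the last 400 bases of *Gapdh* mRNA, stretches of at least 90 bases match 106 other annotated genes at 95% identity or more, 102 of them pseudogenes, and those genes held 4.17% of the summed counts of *Gapdh* and its copies, so reads may have been shared among them.

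*Pdha1*, at chrX:160122209-160138413 on the minus strand, encodes the catalytic alpha subunit of pyruvate dehydrogenase, which commits pyruvate to oxidation in the mitochondrion. The 4 libraries had normalized counts of 786, 810.4, 841 and 816 in BSA and 1028, 984, 1044 and 976 in PAL. The gap between the groups, from 841 to 976, was wider than the spread within either, and the log2 fold change was 0.31 (SE 0.07, *Padj* = 9.62e-05).

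*Ldha*, at chr7:46841475-46855627 on the plus strand, encodes the lactate dehydrogenase subunit that favours lactate formation. It had normalized counts of 3957, 3871, 3839 and 3716 in BSA and 4741, 4222, 4512 and 4304 in PAL, again without overlap. The log2 fold change was smaller than that of the other 2, at 0.21 (SE 0.05, *Padj* = 0.00123).

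None of the 2 transporters, 3 hexokinase and isomerase genes, or 6 phosphofructokinase genes and regulators was called in PAL against BSA. Of the last group 5 of 6 had negative log2 fold changes, with *Pfkm* at -0.29 (*Padj* = 0.147) and *Pfkl*, the liver form, at -0.26 (*Padj* = 0.310). *Pkm*, the muscle-type pyruvate kinase, had 1282, 1095, 1124 and 1038 in BSA and 1390, 1087, 1856 and 1549 in PAL. Those groups overlapped, and the log2 fold change of 0.38 (SE 0.17) was about as large as that of *Gapdh* but was not past the threshold (*Padj* = 0.145). In the pentose phosphate branch, *G6pdx*, which encodes the enzyme of entry, was at -0.27 (*Padj* = 0.125) and *Pgls* (lactonase) at 0.14 (*Padj* = 0.208). The fit without PAL replicate 2, the lowest PAL library for *Pkm*, called 5 genes, adding *Pkm* and *G6pdx*. Other fits added 1 gene each to the 3, namely *Pfkm* with all 24 libraries in 1 fit and without PAL replicate 1, *Pfkl* without PAL replicate 4, *Slc2a1* without BSA replicate 4, *G6pdx* without BSA replicate 1, *Eno1* without BSA replicate 3, and *Pkm* under edgeR.

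**Figure D2:**
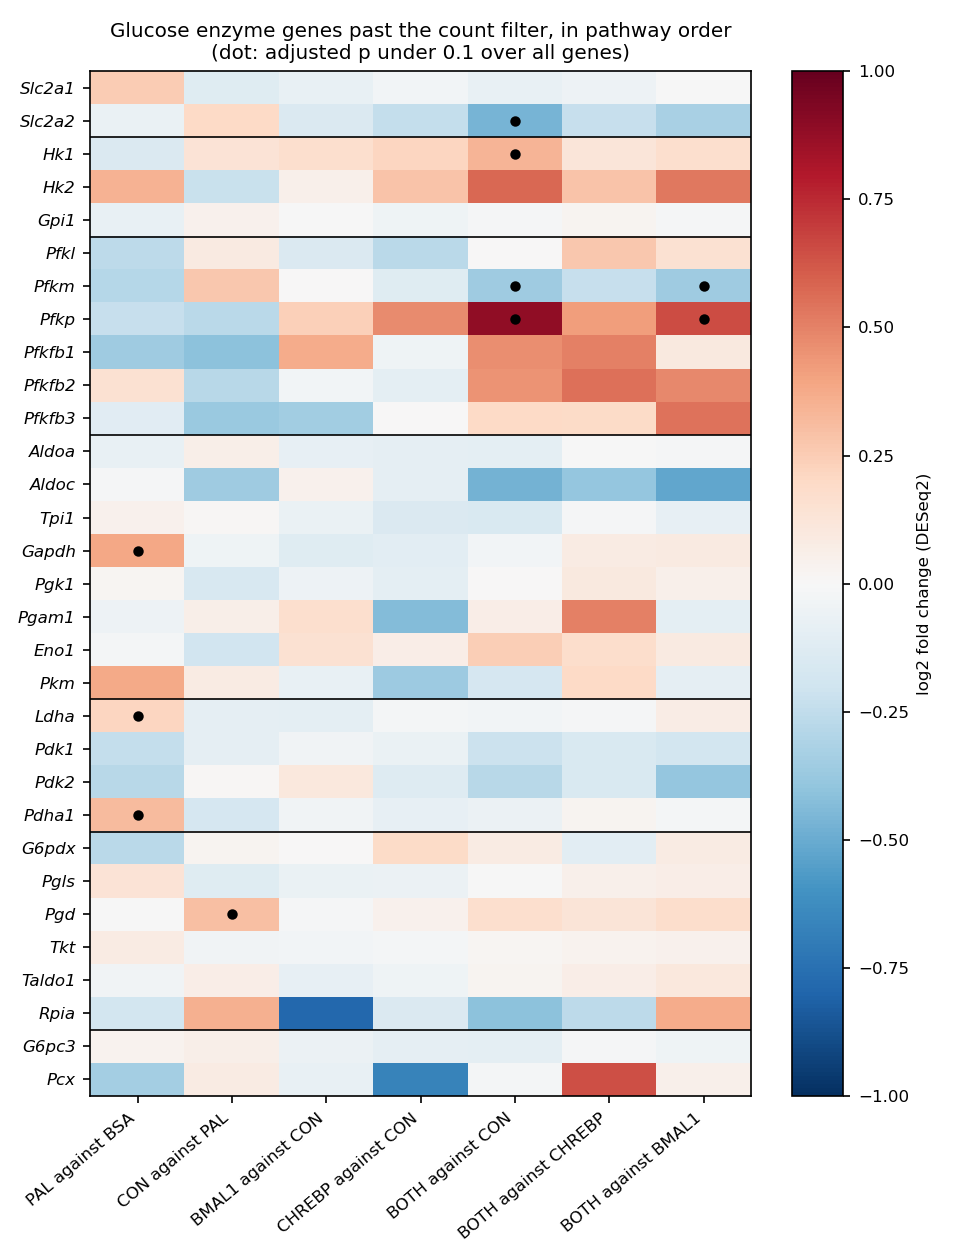
Log2 fold changes (colour scale) of the 31 glucose enzyme genes past the count filter, in rows by pathway step, in 7 comparisons in columns, with a mark where *Padj* was under 0.1. Marks stand for *Gapdh*, *Ldha* and *Pdha1* in PAL against BSA, *Pgd* in CON against PAL, 4 genes in BOTH against CON and 2 in BOTH against BMAL1.

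Of 53 other genes of glucose metabolism, a list of transporters, side branches and tissue isozymes, 38 were tested in PAL against BSA. Of these 2 rose and 7 fell, beside the 6.65% higher and 7.6% lower over all genes given above. Among the genes that fell were *Galm* (galactose mutarotase), which fell by 1.08 on the log2 scale, *H6pd* (the hexose 6-phosphate dehydrogenase of the endoplasmic reticulum), which fell by 0.76, *Bpgm* (bisphosphoglycerate mutase), which fell by 0.44, *Slc16a1* (a lactate and pyruvate carrier of the plasma membrane), which fell by 0.37, and *Mpc2* (a subunit of the mitochondrial pyruvate carrier), which fell by 0.34. *Padj* for these 5 ran from 3.16e-29 for *H6pd* to 0.00937 for *Slc16a1*. Among 15 genes of the hypoxia response outside glycolysis, a program that also includes *Ldha* and *Gapdh*, 0 rose and 3 fell of the 14 tested by DESeq2, with 4 at an unadjusted p under 0.05. The hepatocyte markers were lower as well. Of the 11 tested 6 fell, the summed level of the 15 markers was 12549.5 to 14564 in BSA and 9536 to 11110 in PAL, and no marker of the list was at 0 in all libraries. The biliary sum was 16427 to 18022 in BSA and 13928 to 15288 in PAL, with 1 of 5 tested markers higher and 1 lower. The summed leukocyte markers, of which *Adgre1* and *Clec4f* had no count, were 866 to 951 in BSA and 566 to 669 in PAL, with 1 of 3 tested lower. Nearly all of that sum was *Cd14*, with 429 to 1049 counts per library. The other markers of the list were near 0, the highest being *Cd68* with at most 27 counts and *Csf1r* with at most 17. The stellate cell and fibroblast markers, 4 of 8 without a count, summed to 5.995 to 28.0 in BSA and 3.02 to 6.60 in PAL, with 1 of 2 tested lower. The cells were a single line, so these sums describe transcripts of that line and not counts of liver cell types. Bulk libraries cannot tell a shift among the cells of the line from a change within each cell. The part of these lists in the result was not tested.

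*Pgd* was the only one of the 31 genes called between CON and PAL, which differ in the control esiRNA and its transfection, against 2.51% of all genes tested in either direction, 1.59% higher and 0.92% lower. It encodes 6-phosphogluconate dehydrogenase, the NADPH-forming step after *Pgls*, at chr4:149149991-149166771 on the minus strand. Its normalized counts were 614, 696, 775 and 690.3 in PAL and 850.1, 909, 839.8 and 830.1 in CON, and all 4 CON libraries lay above PAL, by a log2 fold change of 0.30 (SE 0.08, *Padj* = 0.00732). Without CON replicate 2, the highest CON library, it was 0.27 and no longer past the threshold (*Padj* = 0.111). Over all genes the 325 calls became 197 without that library, 180 without CON replicate 3 and 210 without PAL replicate 4.

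The split extended to the other groups. The 8 untransfected libraries ran from 614 to 775 for *Pgd* and the 16 transfected libraries from 801 to 1092, with no overlap. The untransfected libraries were also those of column 1, so column position and transfection are confounded and cannot be told apart. *Pdha1* had 858 to 928 in CON against 976 to 1044 in PAL, also without overlap, but its log2 fold change of -0.17 was not called (*Padj* = 0.189). Of the 38 other genes of glucose metabolism tested, 2 rose, among them *H6pd*, by 0.22 on the log2 scale (*Padj* = 0.0314), which was also among the genes lower in PAL than in BSA. Those 2 comparisons share the PAL libraries. Of the 14 hypoxia genes tested 1 was higher. So were 1 of 11 hepatocyte markers and 1 of 5 biliary markers, with sums of 9536 to 11110 in PAL and 10317 to 11079 in CON for the first list and 13928 to 15288 and 13724 to 14497 for the second. Interferon response genes rose at the same time, 34 of 38 tested, with a summed level of 1834 to 2023 in PAL and 3050 to 14090.1 in CON, and the part of these lists in the *Pgd* difference was not tested.

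In BMAL1 against CON 0 of the 31 genes were called by DESeq2, with 1 gene at an unadjusted p under 0.05 and 0 called by edgeR. Of all genes tested 0.49% were called, 0.166% higher and 0.324% lower, so that 0 of 31 is near the background and does not show that these genes were unaffected. The 68 calls over all genes became 107 without CON replicate 1 and between 16 and 32 without any other library of the 2 groups. The gene at the lower p was *Rpia* (ribose 5-phosphate isomerase), which had 22.3 to 32.5 normalized counts in CON and 8.22 to 20.4 in BMAL1, without overlap, a log2 fold change of -0.78 with SE 0.34, and counts too low for DESeq2 to give it an adjusted p. The median log2 fold change was -0.04 over the 31 genes and 0.00 over all genes. The other list gave 0 of 41 called in this comparison and the hypoxia list 0 of 15.

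In CHREBP against CON DESeq2 also called 0 of the 31 genes, with 2 genes at an unadjusted p under 0.05 and 0 called by edgeR. Of all genes tested 3.42% were called, 2.65% higher and 0.771% lower, and 0 of 31 is again near that share. The 2 genes were *Pcx*, with a log2 fold change of -0.66 (SE 0.28, *Padj* = 0.244) and no overlap between the groups, and *Hk1*, at 0.22 (SE 0.10, *Padj* = 0.313). Log2 fold changes were negative for 24 of the 31 genes, with a median of -0.08 against 0.00 over all genes tested, of which 7071 of 13883 were negative. In the lower glycolysis group 7 of 8 were negative, from *Pgam1* at -0.44 to *Aldoc* at -0.09, and the exception was *Eno1* at 0.07. *Pgam1* had only 12.2 to 23.2 normalized counts in CHREBP and 18.9 to 25.1 in CON. *Aldoc* had 26.4 to 41.0 and 25.5 to 48.5, and both genes overlapped between the groups. A stretch within the last 400 bases of *Eno1* mRNA matches *Eno1b* by the same criterion as for *Gapdh*, and *Eno1b* held 24.1% of the summed counts of the pair, so these 2 may share reads. Outside the 31 genes, 1 of 41 other genes of glucose metabolism was called. It was *Eno3*, the muscle enolase, which fell by 0.44 on the log2 scale (*Padj* = 0.0200). The hypoxia list gave 0 of 15 called. The hepatocyte marker sum was 8819 to 10025 in CHREBP, below the 10317 to 11079 of CON, with 0 of 13 tested markers called. Of 5 biliary markers tested 1 was called lower. The part of these lists in the result was not tested. The liver pyruvate kinase gene *Pklr*, singled out because it is a textbook *Chrebp* target, had a log2 fold change of 0.15 (SE 0.12, *Padj* = 0.770).

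Relative to CON, BOTH cells had lower *Slc2a2* and *Pfkm* and higher *Hk1* and *Pfkp*. These were 4 of 31 genes called, 2 higher and 2 lower, against 9.73% of all genes tested, 5.99% higher and 3.75% lower. The median log2 fold change over the 31 genes was -0.01, the same as over all genes tested to 2 decimals. No gene of lower glycolysis, pyruvate use, the pentose phosphate pathway or gluconeogenesis was called. Among all group means, that of CON was the highest for *Slc2a2* and the lowest for *Pfkp*. In untransfected PAL libraries *Slc2a2* had 178 to 223 normalized counts and *Pfkm* 183 to 265, overlapping BOTH. *Hk1* had 249 to 316 and *Pfkp* 31.7 to 38.0 in PAL, below BOTH. *Pfkp* in BSA, at 28.9 to 60.8, overlapped BOTH.

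*Slc2a2*, at chr3:28697903-28731359 on the plus strand, encodes GLUT2, the high-capacity glucose transporter of hepatocytes. Its normalized counts were 193, 227, 223 and 279 in CON and 160.4, 183, 146 and 175 in BOTH. All 4 BOTH libraries lay below CON, and the log2 fold change was -0.47 (SE 0.13, *Padj* = 0.00481). Group means ran from 231 ± 35.9 in CON through 208 ± 13.7 in BMAL1 and 194 ± 18.4 in CHREBP to 166 ± 16.5 in BOTH (SD, n = 4 each), and neither of the middle groups was called against CON. The other transporter, *Slc2a1* (GLUT1), had a log2 fold change of -0.08 (*Padj* = 0.820) in BOTH.

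*Hk1*, at chr10:62268855-62379908 on the minus strand, encodes hexokinase 1, a high-affinity form that most tissues outside the liver use to trap glucose. The libraries had normalized counts of 285, 290.0, 319 and 304 in CON and 356, 377, 382 and 398 in BOTH, without overlap, a log2 fold change of 0.34 (SE 0.10, *Padj* = 0.0115). BMAL1 and CHREBP means lay between, at 337 ± 37.5 and 349.5 ± 33.9 (SD, n = 4 each), and each of these groups overlapped CON and BOTH. *Hk2*, the inducible hexokinase, had a larger log2 fold change, 0.58 (SE 0.28), but only 41.6 to 79.7 normalized counts in BOTH and 31.7 to 45.8 in CON, and it was not called (*Padj* = 0.238). A transcript from the other strand of *Hk1*, *Hk1os*, had at most 20 counts in a library.

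*Pfkm*, at chr15:98092589-98132451 on the plus strand and carrying the E-box window shown above, encodes the muscle form of phosphofructokinase. It had normalized counts of 256, 224, 246 and 299 in CON and 207, 183, 191 and 218 in BOTH. The highest BOTH library lay just below the lowest CON library, at 218 against 224. The log2 fold change was -0.35 (SE 0.12, *Padj* = 0.0340). It was not past the threshold without CON replicate 4, the highest CON library (-0.28, *Padj* = 0.175), or without BOTH replicate 2, the lowest BOTH library (-0.31, *Padj* = 0.123).

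*Pfkp*, at chr13:6579768-6648777 on the minus strand, encodes the platelet form. Its normalized counts were 35.01, 24.95, 26.3 and 31.3 in CON and 76.3, 53.9, 47.4 and 39.4 in BOTH, without overlap. The log2 fold change of 0.89 (SE 0.26, *Padj* = 0.00977) was the largest in size among the 31 genes in this comparison, and it rested on 27 to 39 raw counts per CON library and 41 to 69 per BOTH library. CHREBP libraries, at 36.5 to 49.4, also lay above CON, with a log2 fold change of 0.47 that was not called (*Padj* = 0.512). The 3′ end of *Pfkp* overlaps *Pitrm1* on the other strand, which held 94% of the summed counts of the pair, and the use of strand in counting was not given in the sources used here. *Pitrm1* had 414 to 919 counts per library and a log2 fold change of -0.13 in BOTH against CON (*Padj* = 0.383).

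*Pfkl*, the third phosphofructokinase gene, had a log2 fold change of 0.00 (SE 0.17) in BOTH against CON. Of the counts for the 3 genes together, *Pfkp* made up 6.07% ± 0.480 for CON, 7.28% ± 1.58 for BMAL1, 9.21% ± 1.05 for CHREBP and 12.2% ± 3.24 for BOTH (SD, n = 4 each). *Pfkm* made up 53.1% ± 3.44 in CON and 44.9% ± 5.06 in BOTH, and *Pfkl* 40.9% ± 3.22 and 42.9% ± 6.53. These shares restate the calls above and carry no test. The genes for the bifunctional regulators, *Pfkfb1*, *Pfkfb2* and *Pfkfb3*, which set the level of the activator fructose 2,6-bisphosphate, had log2 fold changes of 0.46, 0.45 and 0.20 and were not called.

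For 5 of the 8 lower glycolysis genes the largest coefficient of variation within a group was that of BOTH, the exceptions being *Aldoa*, *Eno1* and *Pgam1*. *Gapdh* had 4857, 3186, 4676 and 6843 normalized counts in the 4 BOTH libraries, a mean of 4891 ± 1501 (SD, n = 4), against 4968 ± 159.6 in CON. *Pkm* had 1214, 1006, 1324 and 2018 in BOTH. Replicates 2 and 4 were the BOTH libraries with the lowest and the highest share of counts in the 35 genes. With both of them left out, an alternative chosen after the data were seen, BOTH against CON called *Pfkp*, *Slc2a2* and *Tpi1* (triose phosphate isomerase), and neither *Hk1* (log2 fold change 0.30, *Padj* = 0.136) nor *Pfkm* (-0.36, *Padj* = 0.133).

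**Figure D3:**
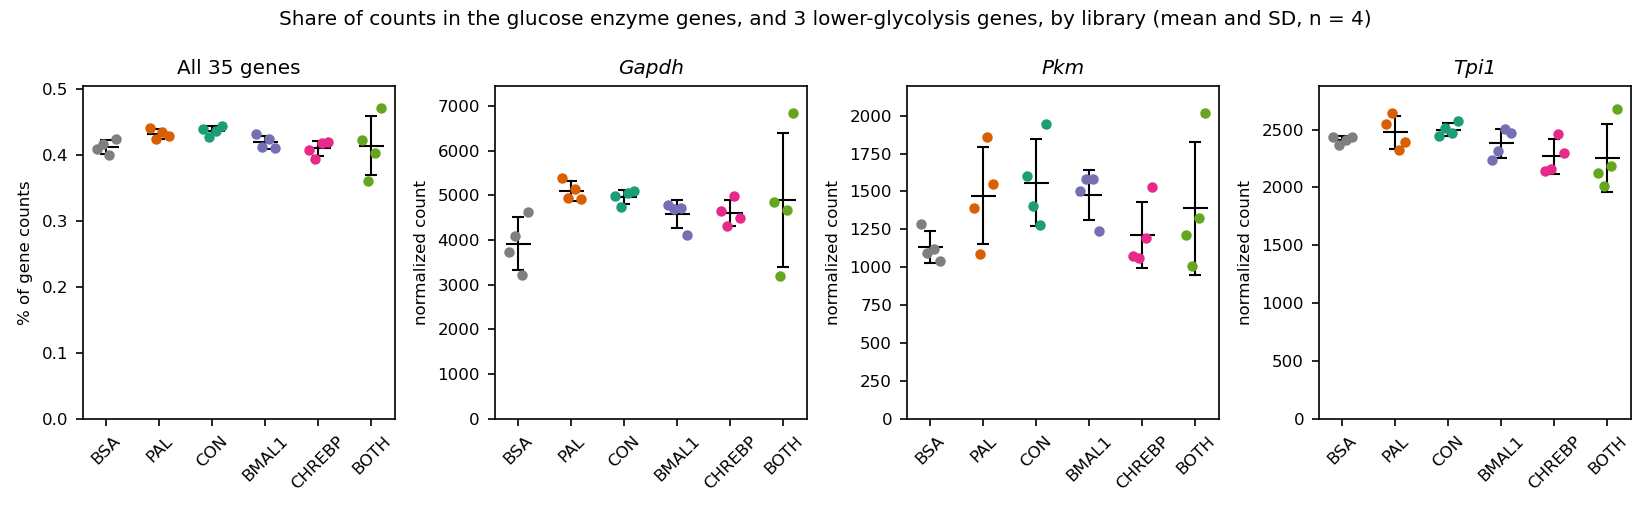
Percentage of all gene counts taken by the 35 genes, and normalized counts of *Gapdh*, *Pkm* and *Tpi1* (vertical axes, linear from 0), by group, with a point for each library and bars for the mean and SD (n = 4). In all 4 panels the BOTH libraries spread more widely than those of the other groups, with shares from 0.361% to 0.470% and *Gapdh* from 3186 to 6843.

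BOTH against BMAL1, which asks what *Chrebp* esiRNA adds when *Bmal1* esiRNA is present, called 2 of the 31 genes, *Pfkm* lower and *Pfkp* higher, against 10.4% of all genes tested, 6.35% higher and 4.08% lower. *Pfkm* had 272, 271, 245 and 235 normalized counts in BMAL1, all above the BOTH libraries, and its log2 fold change was -0.36 (SE 0.12, *Padj* = 0.0333). *Pfkp* had 24.4, 42.5, 39.3 and 30.2 in BMAL1, overlapping BOTH, and its log2 fold change was 0.65 (SE 0.26, *Padj* = 0.0960). Neither call was steady. *Pfkm* was lost without BMAL1 replicate 1 (-0.33, *Padj* = 0.103), BMAL1 replicate 2 (-0.33, *Padj* = 0.129) or BOTH replicate 2 (-0.31, *Padj* = 0.122). *Pfkp* was lost in 6 of 8 such fits, with 0.54 without BMAL1 replicate 1, 0.73 without replicate 3, 0.59 without replicate 4, and 0.45, 0.66 and 0.71 without BOTH replicates 1, 2 and 3 (*Padj* from 0.106 to 0.376), and under edgeR (*Padj* = 0.105). Without both BOTH replicates 2 and 4 the calls were *Pfkp* (0.85, *Padj* = 0.0702) and *Slc2a2*, and *Pfkm* was at -0.36 (*Padj* = 0.127). In the fit of all 16 libraries *Slc2a2*, whose BOTH libraries all lay below BMAL1, was at -0.32 and just outside the threshold (*Padj* = 0.106).

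BOTH against CHREBP, which asks what *Bmal1* esiRNA adds, called 0 of the 31 genes by DESeq2 and 0 by edgeR, with 1 gene at an unadjusted p under 0.05, against 0.994% of all genes tested, 0.843% higher and 0.151% lower. That gene was *Pcx*, at 0.65 (SE 0.28), which had no adjusted p. The 138 calls over all genes became 212 without CHREBP replicate 1, 222 without BOTH replicate 4, 65, 56 and 63 without CHREBP replicates 2, 3 and 4, and 72 without BOTH replicate 2. The interaction, which tests whether the effect of *Bmal1* esiRNA depends on *Chrebp* esiRNA, called 0 of the 31 genes by DESeq2 and 0 by edgeR, with 0 at an unadjusted p under 0.05, against 1.47% of all genes tested, 1.2% higher and 0.267% lower. Its 204 calls over all genes became 112 and 104 without CON replicates 2 and 3, 122 without BMAL1 replicate 2, and 129, 121 and 123 without CHREBP replicates 2, 3 and 4. For *Slc2a2* the interaction was -0.08 (SE 0.18), for *Hk1* -0.05 (SE 0.14), for *Pfkm* -0.23 (SE 0.16) and for *Pfkp* 0.18 (SE 0.37) on the log2 scale. With SEs of this size, the lack of a call does not show that the effects of the 2 esiRNAs add up.

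The likelihood ratio test over the 4 esiRNA groups called the same 4 genes as BOTH against CON, against 9.92% of all genes tested: *Slc2a2* (*Padj* = 0.0356), *Pfkp* (0.0464), *Hk1* (0.0765) and *Pfkm* (0.0784). edgeR called 2 of the 4, *Pfkp* and *Slc2a2*, and the fit with the replicate number as a block called 1, *Slc2a2*. Without both BOTH replicates 2 and 4 the likelihood ratio test called *Pfkp*, *Slc2a2* and *Tpi1*. With 1 library left out in turn the likelihood ratio test called between 1 and 4 of the 31 genes. Of the 16 such fits, 7 called only 1 or 2, namely those without CON replicate 1 or 2 (2 genes each), CON replicate 3 or 4 (1 gene each) or BOTH replicate 1, 2 or 3 (1 gene each).

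**Figure D4:**
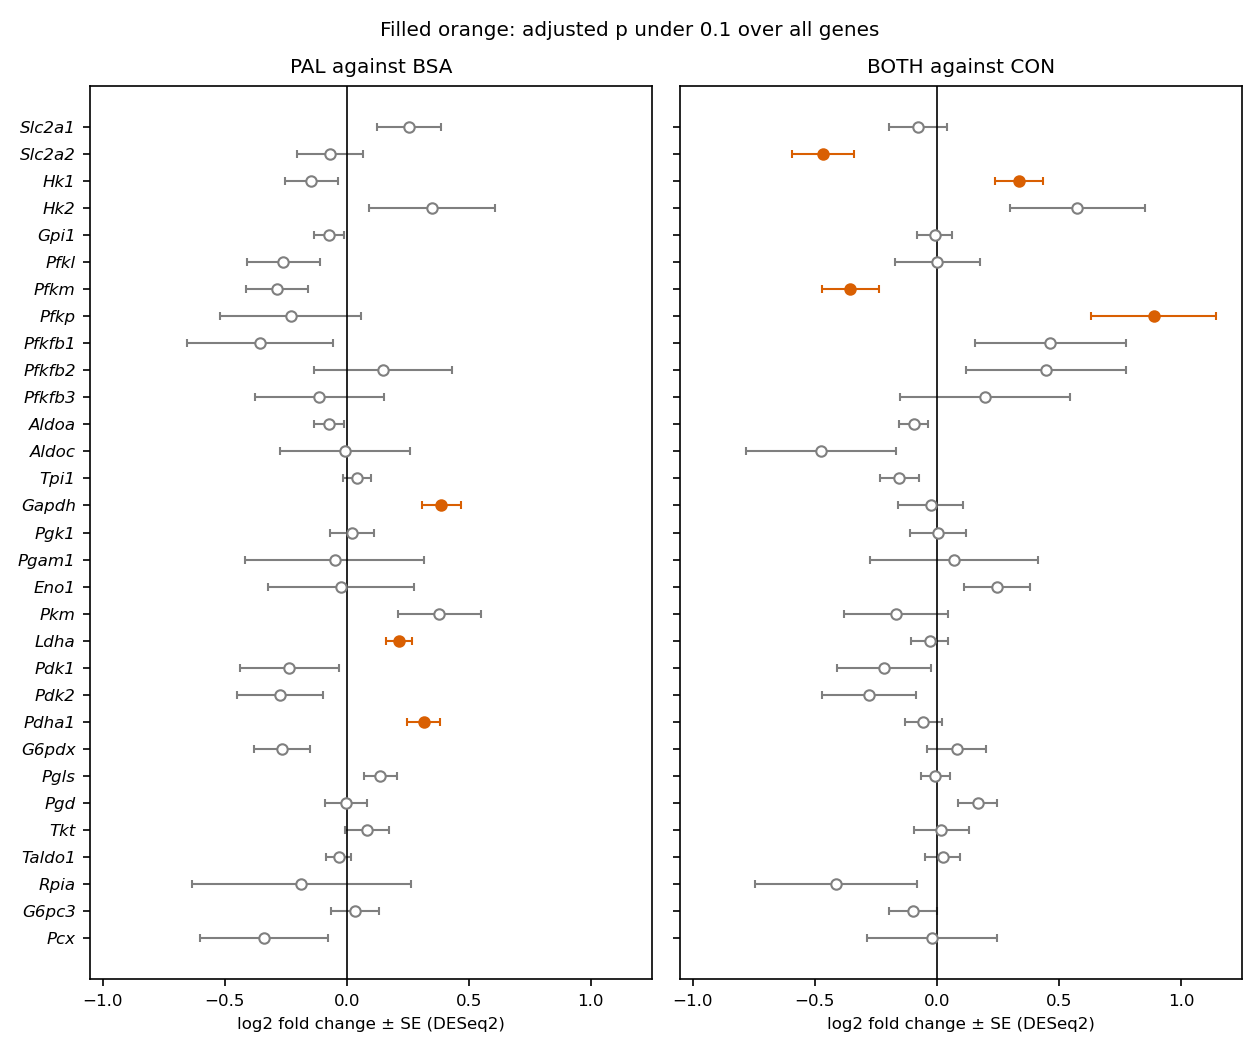
Log2 fold changes with standard errors (horizontal axes, points and lines) of the 31 glucose enzyme genes past the count filter, ordered by pathway step, for PAL against BSA (left) and BOTH against CON (right), with called genes in colour. The called genes are *Gapdh*, *Ldha* and *Pdha1* on the left, all to the right of 0, and *Slc2a2* and *Pfkm* below 0 and *Hk1* and *Pfkp* above 0 on the right.

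Other genes of glucose metabolism gave few further calls among the esiRNA groups. In BOTH against CON 2 of 41 rose, *Pgm1* (phosphoglucomutase, which links glycogen to glucose 6-phosphate) by 0.44 and *Pck2* (the mitochondrial phosphoenolpyruvate carboxykinase) by 0.22 on the log2 scale (*Padj* = 0.0170 and 0.0169). In BOTH against BMAL1 3 of 41 rose, *Pgm1* by 0.49, *Rpe* (ribulose phosphate epimerase) by 0.36 and *Pck2* by 0.35. BOTH against CHREBP and the interaction gave 0 of 41, and the hypoxia list gave 0 of 15 in each of these comparisons.

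Interferon response genes moved strongly across the same groups. Summed over 40 genes, the CON libraries had 3050 to 14090.1 normalized counts and the BMAL1 libraries 3234 to 4336, whereas CHREBP had 39719 to 82065 and BOTH had 74108 to 128997. All 40 were called higher in CHREBP and in BOTH against CON and in BOTH against BMAL1, 15 were called lower in BMAL1 against CON, and 30 were called in the interaction. The hepatocyte marker sum was 10317 to 11079 in CON and 8532 to 10010 in BOTH, with 3 of 13 tested markers lower against CON and 4 of 13 lower against BMAL1, and the biliary sum was 13724 to 14497 and 12970.2 to 14148, with 2 of 5 lower in each. The part of these programs in the changes of *Slc2a2*, *Hk1*, *Pfkm* and *Pfkp* was not tested.

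Ratios between isozymes, which cancel the size factor of a library, are given as a description for 6 pairs. *Ldha* to *Ldhb* was not computed, since *Ldhb* had no counts. *Hk2* to *Hk1* was 0.120 ± 0.0200 in BSA, 0.169 ± 0.0432 in PAL, 0.131 ± 0.0233 in CON and 0.151 ± 0.0436 in BOTH (SD, n = 4 each), with overlapping libraries. *Pfkp* to *Pfkl* was 0.149 ± 0.0128 in CON and 0.149 to 0.374 over the BOTH libraries, of which the lowest lay within the CON range of 0.132 to 0.162. *Pdk1* to *Pdk2*, kinases that switch off pyruvate dehydrogenase, was 0.930 ± 0.338 in BSA and 0.957 ± 0.334 in PAL, and neither kinase was called in any comparison. *Slc2a1* to *Slc2a2* was 1.21 ± 0.194 in CON and 1.60 ± 0.395 in BOTH, *Pfkm* to *Pfkl* was 1.31 ± 0.191 and 1.08 ± 0.272, and *Aldoc* to *Aldoa* was 0.00517 ± 0.00131 and 0.00398 ± 0.00169, each with overlapping libraries.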

How the data were processed

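Counts per gene from 24 BRB-seq libraries of AML-12 cells were analysed. According to the submitters' processing notes and the methods of the study, the authors aligned reads to the mouse genome mm10 with STAR, counted them per gene (HTSeq and featureCounts are both named) and deposited raw counts with no normalization. Versions, annotation release, strand use and the handling of molecular identifiers were not given in the sources used here, and floors cover counting error only.

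Groups came from the sample labels. The 35 genes, the lists beside them and the tests were chosen with earlier results of these data known. Values of some genes of the lists are not reported here. Differential expression was tested with DESeq2 1.42.0 (R 4.3.3) after removal of genes whose counts summed to under 25 in the libraries of a fit, with Benjamini-Hochberg adjustment over all genes and a threshold of 0.1. PAL and BSA (8 libraries), and CON and PAL (8 libraries), were fitted as pairs with the Wald test. The 16 esiRNA libraries were fitted together, with Wald contrasts, an interaction term and a likelihood ratio test. Alternatives were edgeR 4.0.16 (quasi-likelihood test, TMM), DESeq2 with TMM factors, no count filter, the replicate number as a block, other sets of libraries in the fit, and each library left out. The scripts were tested on simulated data.

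The 36 pairs of libraries within groups were compared by chi-square (genes with 10 or more counts in the pair), and the statistic per degree of freedom was 2.70 to 23.1, above sampling noise for every pair. Of the 35 genes, those past the threshold in a Wald comparison were named, with every library's value where the mean normalized count was at least 20. Of the other glucose list at most 6 per comparison, those with the largest log2 fold changes, were considered for naming, by fold change alone. Coordinates are those of GENCODE M21 on GRCm38, the build of mm10. Sequence copies of mRNA ends (last 400 bases, 95% identity over at least 90 bases) were found with BLAST+ 2.17.0.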

Additional observations from a re-analysis of the deposited data

Results flagged for a closer look

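In each of the 31 tested genes and 6 groups, 186 pairs in all, the library farthest from the other 3 was compared with Dixon's 95% limit. It was past the limit in 8 pairs, and chance alone would give 9.3. *Eno1* (enolase) had 777.3 normalized counts in BSA replicate 3, against 355 to 417 in the other BSA libraries. *Pcx* (pyruvate carboxylase) had 76.39 in BSA replicate 4, against 42.6 to 45.1. *Pdk2* had 92.88 in BSA replicate 3, against 119.9 to 123.8. *Hk2* had 57.03 in PAL replicate 3, against 39.6 to 42.3, and *Taldo1* had 3554 in PAL replicate 1, against 3296 to 3330.0. *Aldoa* had 7469 in CON replicate 3, against 6809 to 6909, *Gapdh* had 4110 in BMAL1 replicate 4, against 4695 to 4791, and *Pfkp* had 49.35 in CHREBP replicate 3, against 36.6 to 37.9. None of the 8 lies in a pair of groups in which that gene was called.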

How the results depend on the processing

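Counts of called genes for PAL against BSA, CON against PAL, BMAL1, CHREBP and BOTH against CON and BOTH against CHREBP, and that for the interaction, stayed within 1.5 times under edgeR, TMM factors, no count filter, the replicate block and other sets of fitted libraries. For BOTH against BMAL1 the count of 2 became 1 under edgeR, with no filter, with the replicate block and with the 2 groups alone, each time by the loss of *Pfkp*. For the likelihood ratio test the count of 4 became 2 under edgeR and 1 with the replicate block. No fold change of a called gene reversed. Leaving out 1 library in turn gave 3 to 5 genes for PAL against BSA, 0 to 1 for CON against PAL, 3 to 5 for BOTH against CON, 0 to 4 for BOTH against BMAL1 and 1 to 4 for the likelihood ratio test. The cause of these changes was not tested.

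The replicate numbers did not pair the libraries. Deviations of same-numbered libraries from their group means correlated between -0.221 and 0.267. With the replicate block PAL against BSA gave 3 genes, CON against PAL 1 and BOTH against CON 4, as without it. Over all genes it moved the calls of PAL against BSA from 1828 to 1188, of CON against PAL from 325 to 186 and of BMAL1 against CON from 68 to 22. For BMAL1 against CON over all genes edgeR called 14 and the 2 groups alone 144, and for BOTH against CHREBP edgeR called 53 and the 2 groups alone 80, against 138. For the interaction edgeR called 122 over all genes, against 204. Without BOTH replicates 2 and 4 together, chosen after the data were seen, BOTH against CHREBP called 44 over all genes. Depth limits the 9 tested genes with mean normalized counts under 50 and the 4 genes below the filter most.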
